A study of Mus musculus with 15 samples.

Results

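Nucleosome positions were measured at the promoters of genes that are expressed strongly in both dendritic cells (DCs) and fibroblasts. Of 25881 promoters, 11833 belonged to protein-coding RefSeq transcripts and had a coverage score above 100 fragments, and 455 of these (3.85%) lay in the top 10% of expression in non-stimulated DCs and also in the top 10% in non-stimulated fibroblasts. They are called shared high promoters here, and they belong to 452 gene symbols. They were selected on measured expression, so their expression is a description and was not tested, whereas the nucleosome values were not used for the choice.

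DCs are antigen-presenting immune cells, here differentiated in vitro from progenitor lines of mouse bone marrow, and the fibroblasts are of the immortalised mouse line 3T3. In ChIP-MNase, large pieces of fixed chromatin are recovered with an antibody and digested on the beads with micrococcal nuclease (MNase), which spares DNA wrapped in nucleosomes. H3K4me1, the histone mark used for most libraries, is found around promoters and enhancers. The H3K4me1 libraries were from DCs without stimulus, DCs after 1 h of LPS (a bacterial cell-wall component) at 100 ng/ml, fibroblasts without stimulus, and fibroblasts after 1 h of TNF-α (an inflammatory cytokine) at 5 ng/ml. Each of these 4 was given by the authors as a set of 2 pooled replicates, so it carries no replicate error. Another 8 single H3K4me1 libraries came from control and BAF-knockdown fibroblasts, each without and with TNF-α, with 2 replicates. BAF is a chromatin remodelling complex, and the knockdown was stable, with 1 shRNA against its ATPase subunits Brg1 and Brm. The degree of knockdown cannot be read from nucleosome positions and was not analysed here. Finally, 3 libraries from TNF-α-stimulated fibroblasts were recovered through RNA polymerase II (pol-II) phosphorylated on serine 7 (S7P, 2 replicates) or serine 5 (S5P, 1 library) of its C-terminal repeats. S5P is typical of polymerase that has just started transcription.

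At active promoters, nucleosomes are arranged around the transcription start site (TSS): a nucleosome-depleted region (NDR) lies just upstream, the first nucleosome downstream (+1) is held at a fixed place, and the following nucleosomes form an array of regular spacing. CpG-rich promoters, which are typical of genes used by most cells, often show an open NDR. Some promoters carry short sequence elements such as a TATA box upstream of the TSS, which is bound by TBP, or a polypyrimidine (TCT) initiator at the TSS, which is typical of ribosomal protein genes. A library averages over many cells and alleles, so a low occupancy in all cells and an empty site in some of them cannot be told apart.

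The 4 sequences below show the range of the group: the highest-ranked promoter with a TATA box, the highest-ranked with a TCT initiator, the highest-ranked with an ETS motif and no TATA box, and the promoter with the highest NDR occupancy. All are from mm9, run 5′ to 3′ in the direction of transcription and end 20 bp past the TSS. In each, the GENCODE annotation places the TSS in an exon of the named gene (Rack1 under its older name Gnb2l1), and no other annotated gene overlaps the window. Capitals mark matches to the motifs searched.
S100a4: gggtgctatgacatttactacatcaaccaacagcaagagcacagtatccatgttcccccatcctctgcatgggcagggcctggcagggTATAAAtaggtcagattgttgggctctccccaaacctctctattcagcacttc
Rack1: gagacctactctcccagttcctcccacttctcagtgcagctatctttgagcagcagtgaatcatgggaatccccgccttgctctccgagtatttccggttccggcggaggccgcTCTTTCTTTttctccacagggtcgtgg
Cstb: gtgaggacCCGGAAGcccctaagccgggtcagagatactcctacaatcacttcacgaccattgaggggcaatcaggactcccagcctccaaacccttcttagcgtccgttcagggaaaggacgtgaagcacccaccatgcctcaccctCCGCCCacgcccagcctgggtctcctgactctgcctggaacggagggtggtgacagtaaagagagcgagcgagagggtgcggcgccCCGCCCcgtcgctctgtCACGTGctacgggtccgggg
Nedd8: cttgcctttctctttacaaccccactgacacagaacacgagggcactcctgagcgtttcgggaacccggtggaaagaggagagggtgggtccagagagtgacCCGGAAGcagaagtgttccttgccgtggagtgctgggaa
S100a4, a calcium-binding protein of motile cells, lies at chr3:90407573-90407713 on the plus strand, with the TATA box starting at −32 bp. Rack1, a scaffold protein of the small ribosomal subunit, lies at chr11:48613743-48613883 on the plus strand, with its pyrimidine run starting at −6 bp. Cstb, an inhibitor of lysosomal cysteine proteases, lies at chr10:77888166-77888436 on the plus strand, with an ETS motif at −242 bp and GC boxes at −102 and −16 bp. Nedd8, a ubiquitin-like modifier, lies at chr14:56290723-56290863 on the minus strand, with an ETS motif at −18 bp.

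Public RNA-seq values of the authors' annotation, in FPKM, ranged from 3.59 (median 6.49) to 827 in DCs and from 25.4 (median 60.2) to 2159 in fibroblasts. The scales of both columns differ, so values are compared only within a cell-type. Fth1, the heavy chain of the iron store ferritin, was the highest in DCs with 827 FPKM and had 1744 FPKM in fibroblasts, where S100a4 was the highest. The 10 with the best mean rank over both cells were Fth1, B2m (light chain of MHC class I), S100a4 and S100a6 (calcium-binding proteins), Pfn1 (actin-binding profilin), Cstb and Cst3 (cystatins), Ctsd (a lysosomal protease), Akr1a1 (an aldehyde reductase) and Cox8a (a subunit of cytochrome oxidase). Just inside the DC threshold of 3.588 FPKM were Bola3, Psmc2 and Taf15 (3.588 to 3.602 FPKM), and just outside it Srebf2, Ptgr1 and Wipf1 (3.587, 3.575 and 3.572 FPKM). At the fibroblast threshold of 25.28 FPKM, the promoters just inside were Ilrun, Pip4p1 and Nup62 (25.4 to 25.7 FPKM), and those just outside were Fam32a, Tmem168 and Appbp2 (25.13, 25.04 and 24.94 FPKM).

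Of the 455 promoters, 182 fell into at least 1 of 13 lists of gene functions. The respiratory chain and ATP synthase had the most, with 44 promoters of 85 in the list that met the coverage minimum. Membrane traffic had 23 of 139, cytosolic ribosomal proteins 20 of 73, chaperones and folding 15 of 67, and the proton pump and lysosome 15 of 35. The proteasome and ubiquitin list had 14 of 54, RNA processing 12 of 89, translation factors 10 of 56, the cytoskeleton 10 of 41, redox and iron 8 of 36, mitochondrial ribosomal proteins 5 of 60, glycolysis 3 of 13, and chromatin and nucleolus 3 of 19. Coverage limits these counts: another 6 ribosomal protein and 14 cytoskeleton promoters were above both expression thresholds but had a coverage of 100 or less. By the rule on expression, 8 of 15 promoters of commonly used reference genes were in the group, as were 0 of 21 promoters of DC marker genes and 3 of 16 promoters of fibroblast marker genes, namely S100a4, Fn1 (fibronectin) and Thbs1 (thrombospondin), with 84.5, 31.0 and 120 FPKM in DCs.

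In sequence, the group was CpG-rich. A promoter was called CpG-rich where the sequence within 200 bp of the TSS was over 50% GC and held over 0.6 times the CpGs expected from its bases. This was so for 391 of 455 promoters (85.9%), against 59.6% of the 11832 eligible promoters with sequence. For comparison, promoters between the 50th and the 90th percentile of expression in both cells (moderately expressed, 2947) were CpG-rich in 85.0%, and promoters with an expression of 0 in both (silent, 926) in 12.0%. Another start on the opposite strand lay within 1 kb upstream of 109 shared high promoters (24.0%, against 15.9% of eligible and 27.1% of moderately expressed promoters).

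Motifs were searched from −250 to 50 bp on both strands unless stated. The ETS motif CCGGAAG was in 26.2% of shared high and 15.2% of eligible promoters, and the GC box GGGCGG in 71.9% and 54.8%. Shares are given for shared high, then for eligible promoters. NRF1 (GCATGCGC) was found in 7.03% and 4.06%, YY1 (AAGATGGCG) in 4.84% and 2.51%, CRE (TGACGTCA) in 4.62% and 2.80%, and the E-box CACGTG in 11.6% and 9.06%. CCAAT, from −150 to 50 bp, was in 33.2% and 29.7%. Moderately expressed promoters had shares close to the shared high ones for all 7 of these motifs, with 27.7% for ETS, 67.3% for the GC box, 6.99% for NRF1, 5.43% for YY1, 4.31% for CRE, 11.3% for the E-box and 31.0% for CCAAT. The TATA box (TATAAA on the sense strand, −40 to −15 bp) was in 10 shared high promoters (2.20%), in 1.76% of eligible and in 0.407% of moderately expressed promoters. A TCT initiator (TCTTT or CCTTT on the sense strand, −6 to 5 bp) was in 11 (2.42%, against 1.82% of eligible promoters), and 5 of these 11 were the ribosomal protein genes Rps9, Rplp2, Rps10, Rpl27a and Rpl18. These are matches of letters, not measured binding.

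The question for the nucleosome data was how the most strongly used promoters are organised in both cells, and whether stimulation or loss of BAF alters this. The NDR ratio sets the occupancy of the last 150 bp before the TSS against that of the upstream flank (−1000 to −500 bp), both in the mean profile of a set of promoters, so a ratio of 1 means no depletion. Shared high promoters had an NDR ratio of 0.446 in non-stimulated DCs, 0.386 in LPS-treated DCs, 0.395 in non-stimulated fibroblasts and 0.342 in TNF-α-treated fibroblasts. All 4 were below the ratio of moderately expressed promoters in the same set (0.494, 0.464, 0.454 and 0.393) and well below that of silent promoters (0.948 to 0.985). The +1 nucleosome stood at 135 bp in 3 of the 4 sets and at 145 bp in TNF-α-treated fibroblasts. It reached 1.59 times the upstream level in DCs without stimulus, 1.48 times with LPS, 1.74 times in fibroblasts without stimulus and 1.79 times with TNF-α, and moderately expressed promoters reached 1.42 to 1.62 times.

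**Figure D1:**
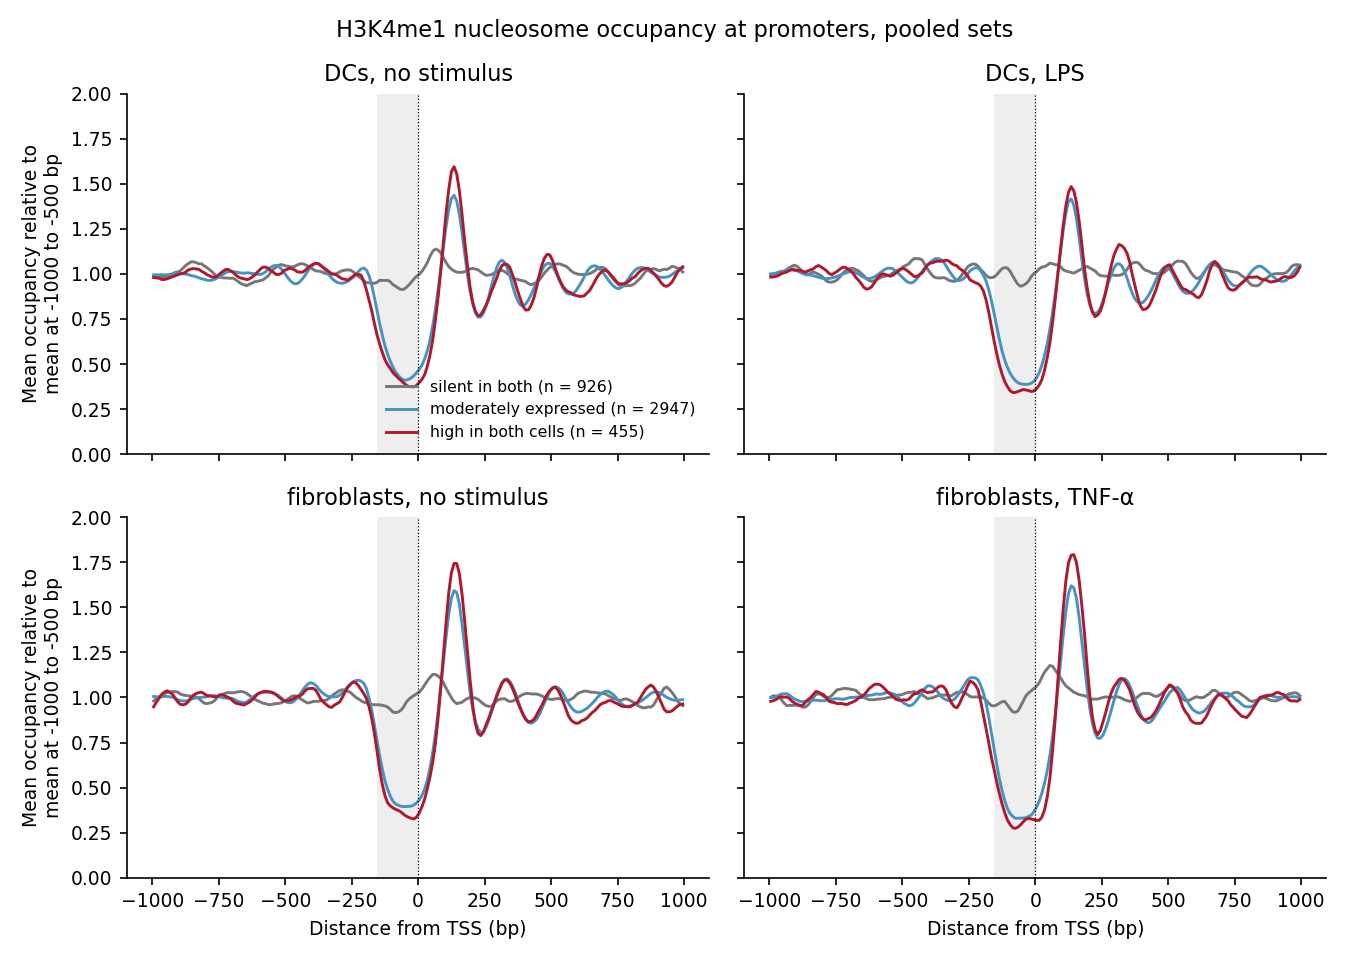
Mean H3K4me1 nucleosome occupancy in 10 bp bins (y axis, relative to the mean from −1000 to −500 bp) against distance from the TSS in bp (x axis) in the 4 pooled sets, for shared high (red), moderately expressed (blue) and silent (grey) promoters; the grey band is the NDR from −150 to 0 bp. In all 4 panels the red line has the lowest mean in the band and highest at the +1 nucleosome, and the grey line stays near 1.

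The 8 single fibroblast libraries are 2 replicates in each of 4 conditions, so the SD over them includes the spread between conditions. Shared high promoters had NDR ratios of 0.619 and 0.446 in control cells without stimulus (replicates 1 and 2), 0.570 and 0.477 in control cells with TNF-α, 0.581 and 0.571 in BAF-knockdown cells without stimulus, and 0.436 and 0.426 in BAF-knockdown cells with TNF-α. Their mean was 0.516 ± 0.0772 (SD, n = 8), against 0.575 ± 0.0797 for moderately expressed promoters. The difference was −0.0589 ± 0.0120 and was negative in 8 of 8 libraries (two-sided exact sign-flip test over libraries, p = 0.00781, the smallest that 8 libraries allow; 0.0234 after Benjamini-Hochberg adjustment over 9 tests). So the spread between libraries was larger than the difference, but within each library the order was the same. With the threshold at the top 5% of expression, which left 170 promoters, the difference was −0.0350 and missed the threshold (exact p = 0.0547). Silent promoters had a mean ratio of 0.953 ± 0.0372, and the difference to them was −0.437 ± 0.0852, negative in 8 of 8 libraries (exact p = 0.00781, adjusted 0.0234).

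Promoters that are high in only one cell-type are the closest comparison, and these tests were added after values had been seen. In DCs without stimulus, the 729 promoters high in DCs alone had a ratio of 0.531 and the 729 high in fibroblasts alone 0.521. In fibroblasts without stimulus these were 0.637 and 0.452. Over the 8 single fibroblast libraries, shared high promoters were lower than those high in fibroblasts alone by 0.0696 ± 0.0245 (negative in 8 of 8) and lower than those high in DCs alone by 0.234 ± 0.0375 (8 of 8, exact p = 0.00781 for each). The first comparison is between promoters of the same expression class in fibroblasts, with 85.9% and 81.1% of CpG-rich promoters. Its order held only for CpG-rich promoters, with means of 0.473 (shared high) and 0.555 (fibroblasts alone) over the 8 libraries. For promoters that are not CpG-rich the means were 0.787 and 0.720, in the opposite order. Against promoters high in DCs alone, both classes were lower over the 8 fibroblast libraries. Promoters high in DCs alone had means of 0.610 (CpG-rich) and 0.936 (others) there. In the pooled DC sets, the CpG-rich class was also lower (0.410 against 0.458 without stimulus and 0.349 against 0.412 with LPS). The other class was not lower in DCs, with 0.661 against 0.626 and 0.611 against 0.609. These class values were not tested. DCs offer only 2 pooled sets and no such test.

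**Figure D2:**
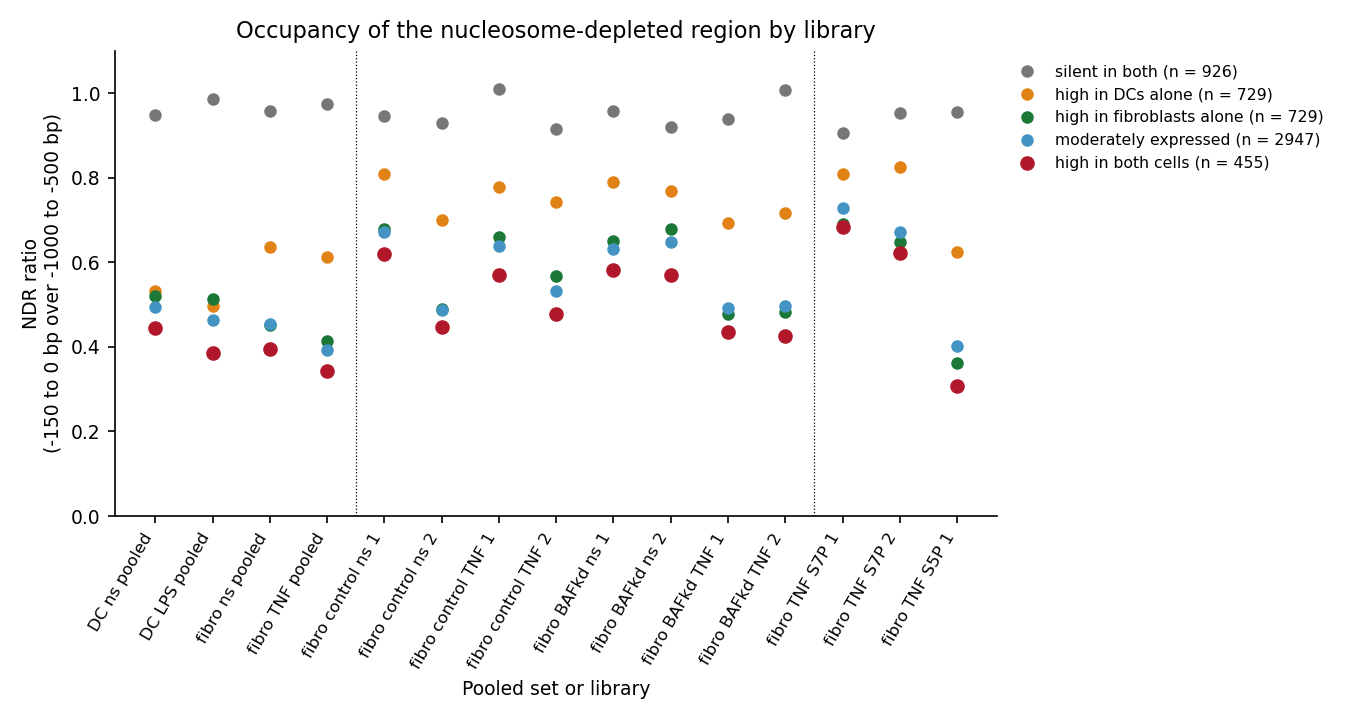
NDR ratio (y axis, occupancy from −150 to 0 bp over that from −1000 to −500 bp) for the 15 pooled sets and libraries (x axis; 1 point per set of promoters, dotted lines separate pooled H3K4me1, single H3K4me1 and pol-II libraries). The shared high promoters (red) are lowest of the 5 sets in all 15 columns, from 0.307 in S5P to 0.684 in S7P replicate 1, and the silent promoters (grey) are highest, between 0.906 and 1.01.

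CpG content divided the group. The 391 CpG-rich shared high promoters had ratios of 0.410 and 0.349 in DCs (without and with LPS) and 0.351 and 0.299 in fibroblasts (without and with TNF-α). The other 64 had 0.661, 0.611, 0.669 and 0.603. In the 8 single libraries the means were 0.473 ± 0.0799 and 0.787 ± 0.0905. The difference was −0.315 ± 0.0736 and negative in 8 of 8 libraries (exact p = 0.00781, adjusted 0.0234), and the lowest ratio of the other promoters (0.665) was above the highest of the CpG-rich ones (0.567). Among promoters that are not CpG-rich are those of S100a4, S100a6, S100a10 and S100a11, of the annexins Anxa4 and Anxa5, of Lgals1 (a galectin), and of Apoe (a lipid carrier). These names are a selection from the 64, which also hold Gabarap, Rab7, Ndufb3, Selenop, Emp3 and Morf4l2. A shared function was not tested.

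The lower ratio of shared high promoters was seen within the CpG-rich class, in a test added after values had been seen. CpG-rich shared high promoters were below 2506 CpG-rich moderately expressed ones by 0.0693 ± 0.0166, in 8 of 8 libraries (exact p = 0.00781). The 64 others differed from 441 moderately expressed promoters that are not CpG-rich by 0.0251 ± 0.0942, with 3 of 8 libraries negative (exact p = 0.438), and single libraries ranged from −0.118 to 0.180. The gap between the CpG classes was larger in shared high than in moderately expressed promoters (−0.220 in the latter) by 0.0944 ± 0.105, in 6 of 8 libraries (exact p = 0.0469, not adjusted). A wide gap was also seen in promoters high in DCs alone, with means of 0.610 (CpG-rich) and 0.936 (others) over the same libraries. Those high in fibroblasts alone had 0.555 and 0.720. Neither of these gaps was tested.

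**Figure D3:**
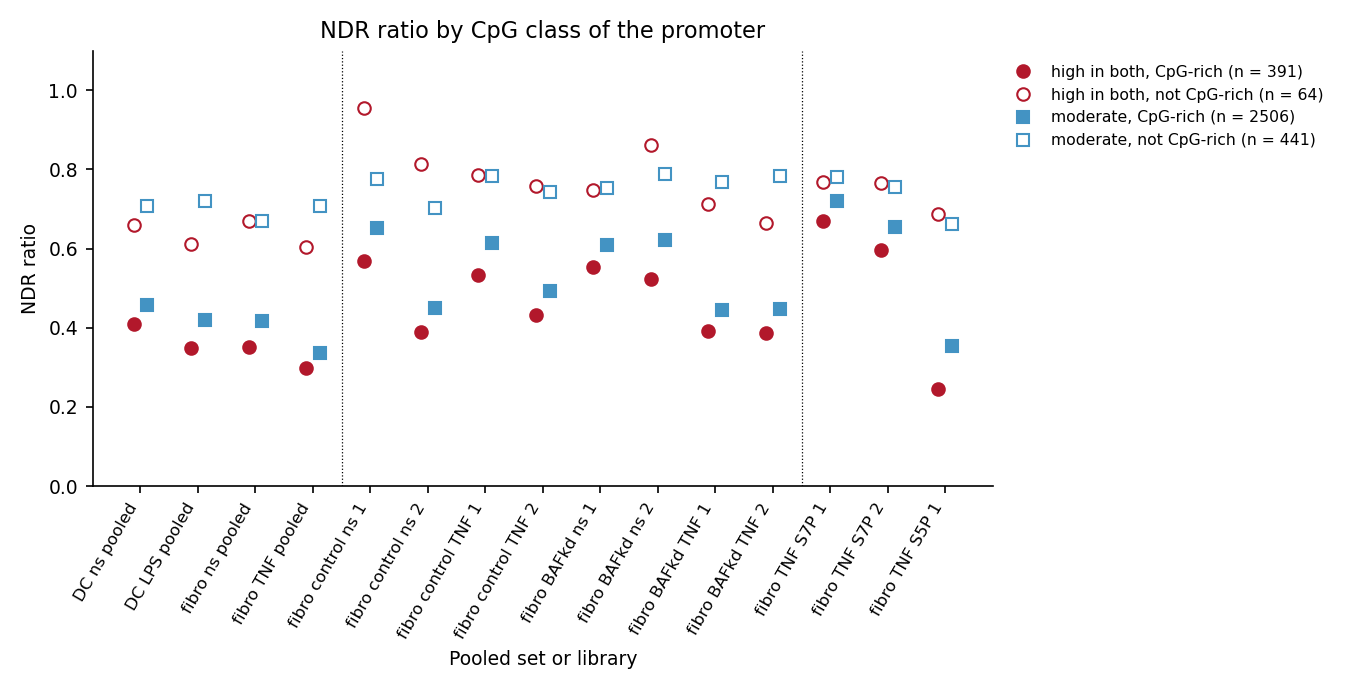
NDR ratio (y axis) by pooled set or library (x axis) for shared high (circles, red) and moderately expressed (squares, blue) promoters, filled where the promoter is CpG-rich and open where it is not. The filled circles lie below the filled squares in all 15 columns, while the open circles lie on either side of the open squares.

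Nucleosome patterning put shared high promoters well above silent ones in all 4 pooled sets, but only slightly above moderately expressed ones. The patterning level of a promoter is the sum of its occupancy weighted by the centred mean profile of 6003 other promoters expressed in fibroblasts (taken from the non-stimulated fibroblast set, moderately expressed promoters included), so that a value above 0 means a profile of the same kind. It was above 0 at 84.8% and 84.6% of shared high promoters in DCs (without and with LPS) and at 88.8% and 87.5% in fibroblasts (without and with TNF-α). The shares were 83.2%, 82.4%, 84.3% and 84.3% for moderately expressed promoters, 72.6%, 71.9%, 72.1% and 71.7% for eligible promoters, and 49.0% to 52.4% for silent ones. Promoters high in DCs alone had 83.1% and 81.2% in DCs (without and with LPS). Those high in fibroblasts alone had 86.7% and 85.9% in fibroblasts (without and with TNF-α), close to the shared high promoters. These shares are of pooled sets and were not tested.

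Single promoters were less certain than the group. The relative NDR occupancy of a promoter is its mean from −150 to 0 bp divided by its own mean over the 2 kb window, and a promoter below 0.5 is called depleted. In non-stimulated DCs 281 of 455 were depleted (61.8%, against 40.5% of eligible promoters), with LPS 306 (67.3%, against 43.7%). In non-stimulated fibroblasts 303 were depleted (66.6%, against 42.6%), and with TNF-α 328 (72.1%, against 46.5%). Moderately expressed promoters were much nearer to the group than eligible ones, with 56.8%, 61.6%, 61.8% and 68.0% depleted in the same order. The median relative occupancy of shared high promoters was 0.385, 0.260, 0.280 and 0.105 in these 4 sets. It was exactly 0 at 68, 116, 98 and 183 promoters. Fragments covered 87.1%, 81.9%, 84.4% and 76.0% of the bins at shared high promoters, against 90.7%, 86.5%, 87.5% and 82.0% at eligible ones. So the stimulated sets were sparser, and the part of this in the shares of depleted promoters was not tested. Depletion in all 4 was found at 143 promoters (31.4%, against 17.4% of eligible promoters) and in none at 43 (9.45%, against 30.3%). Before stimulation, 202 were depleted in both cells (44.4%, against 26.5% of eligible promoters) and 73 in neither (16.0%, against 43.4%). The shares depleted in one cell-type alone were nearer to the background, with 79 in DCs alone (17.4%, against 13.98%) and 101 in fibroblasts alone (22.2%, against 16.1%). Of the 64 promoters that are not CpG-rich, 21 were depleted in none of the 4 sets (32.8%), against 22 of the 391 CpG-rich ones (5.63%).

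Across the 455 promoters, Spearman's rho between 2 replicates of a condition was 0.131 to 0.275 in the single libraries, which share the promoters but no reads. Between pooled sets, rho was 0.204 for non-stimulated DCs and fibroblasts and 0.362 for LPS-treated DCs and TNF-α-treated fibroblasts. Within a cell-type, without and with stimulus, it was 0.294 in DCs and 0.384 in fibroblasts. Pooled sets and single libraries are not directly comparable. Over the 8 single libraries, the median SD of a promoter's relative occupancy was 0.447. A value of 1 promoter in 1 library therefore carries little weight. Some of the named cases that follow are given with pooled sets and single libraries, others with pooled sets alone or by name only.

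Capzb, which caps actin filaments (chromosome 4, TSS 138748847), was at 0 in all 4 pooled sets and between 0 and 0.298 (median 0) in the 8 single libraries. It was 1 of 12 promoters depleted in every one of the 12 H3K4me1 sets and libraries, among them Cyb5r3, Ndufa2, Uba1, Krtcap2, Psmb6 and Atp6v1g1 (named after their values had been seen), or 2.64% against 1.23% of eligible promoters. Atp5b, the catalytic subunit of ATP synthase (chromosome 10, TSS 127520364), was also at 0 in all 4 pooled sets. So were 9 promoters in all (1.98%, against 1.11% of eligible promoters), the others being Aldoa, Hnrnpa2b1, Sgk1, Vps35, Trappc2l, Mgat2 and Dnajb11, the last 4 of which were named after their values had been seen. In single libraries Atp5b ran from 0 to 3.70 with a median of 1.69, so the pooled value did not hold there. Its 3 libraries at 0 were BAF-knockdown ones, and the fourth BAF-knockdown library had 2.43, the second highest value.

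At the other end, Nedd8 (chromosome 14, TSS 56290743) had 1.49 and 0.608 in DCs (without and with LPS), 3.33 and 2.42 in fibroblasts (without and with TNF-α), and 0.798 to 3.31 (median 1.72) in the 8 single libraries. It was depleted in none of the 12, as were Gabarap, Lgals3, Clic1, Scd2, Tpi1, Nme2, Rin2, Mrps21 and Ccni (10 promoters or 2.20%, against 8.24% of eligible promoters), and 6 of these 10 are not CpG-rich. Gabarap, an autophagy protein (chromosome 11, TSS 69804873), had 1.69, 0.776, 0.927 and 0.946 in the pooled sets and 0.732 to 1.44 (median 1.19) in the single libraries, although its expression was 730 FPKM in fibroblasts. The next highest means over the pooled sets were those of Ndufb3 (respiratory chain), Emb (embigin), Selenop (selenium carrier) and Sri (sorcin). S100a4, whose TATA promoter is shown above, had 0.385, 0.690, 0.945 and 1.25 in the pooled sets and 0.784 to 1.44 (median 0.927) in the single libraries. At these 3 promoters the NDR of the single libraries lay near or above the promoter's own mean in the median, although all 3 genes are above both expression thresholds.

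Fth1 (chromosome 19, TSS 10057194) had 0.167, 0, 0.0136 and 0.298 in the pooled sets, and 0 to 0.916 (median 0.301) in the single ones. B2m (chromosome 2, TSS 121973424) had 0.145, 0.423, 0.645 and 0, and 0 to 0.949 (median 0.0939), with 7 of 8 libraries below 0.5. Pfn1 (chromosome 11, TSS 70468152) was at 0 and 0.0101 in non-stimulated DCs and fibroblasts and at 1.96 and 2.49 after stimulation. All 8 single libraries of Pfn1, stimulated ones included, lay at 0.170 or below, and so did not show the difference between the pooled sets.

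Between the cells before stimulation, the largest differences toward lower occupancy in fibroblasts were at Dazap2 (3.79 in DCs and 0 in fibroblasts), G3bp1 (2.21 and 0), Ddx5 (2.05 and 0), Adam9 (3.66 and 1.77) and Atp6v0d1 (1.68 and 0). Those toward higher occupancy in fibroblasts were at Cct8 (0 in DCs and 1.85 in fibroblasts), Nedd8, a Ddx17 promoter (0 and 1.78), Arl6ip5 (0.0659 and 1.57) and Rhoa (0 and 1.44). These pooled values have no replicates and were not tested. In LPS-treated DCs, G3bp1 had 0.990, Dazap2 0.270, and Ddx5, Adam9 and Atp6v0d1 had 0, so that the high values of the last 4 were not found in the second DC set. In TNF-α-treated fibroblasts, Cct8 and Rhoa had 0 and the Ddx17 promoter 0.360, so their high values were not found in the second fibroblast set. Nedd8 had 2.42 and Arl6ip5 0.946 there. Rhoa, at 0 in DCs without stimulus, had 2.43 in LPS-treated DCs.

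By function, the NDR ratio in the 8 single libraries was lowest for the proton pump and lysosome list (0.346 ± 0.102, 15 promoters, such as Ctsd and Lamp1) and the cytoskeleton list (0.356 ± 0.129, 10 promoters, such as Pfn1 and Cfl1). Next came chaperones and folding (0.412 ± 0.122, 15 promoters, such as Calr and Hsp90b1), chromatin and nucleolus (0.438 ± 0.307, 3 promoters, with H3f3b and Npm1), ribosomal proteins (0.476 ± 0.125, 20 promoters, such as Rpl32), the respiratory chain (0.498 ± 0.118, 44 promoters, such as Cox8a and Cox6b1) and redox and iron (0.502 ± 0.127, 8 promoters, such as Fth1 and Prdx1). Above the whole group's 0.516 were membrane traffic (0.606 ± 0.132, 23 promoters, such as Gabarap and Rab7), translation factors (0.620 ± 0.278, 10 promoters, such as Eef2 and Eif3k), RNA processing (0.631 ± 0.167, 12 promoters, such as Ddx5 and Hnrnpa2b1), the proteasome (0.649 ± 0.129, 14 promoters, such as Psmb4 and Nedd8), mitochondrial ribosomal proteins (0.754 ± 0.268, 5 promoters, with Mrpl52 and Mrpl33) and glycolysis (0.970 ± 0.427, 3 promoters, with Aldoa and Ldha). The SDs of neighbouring lists overlap, and the order of the lists was not tested. CpG-rich promoters made up all 15 of the lysosome and all 15 of the chaperone list, but also all 10 of the translation factors and 11 of 12 in RNA processing, and 18 of 23 in membrane traffic.

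Ribosomal protein promoters had ratios of 0.320, 0.437, 0.315 and 0.223 in the pooled sets, below the other shared high promoters (0.452, 0.383, 0.398 and 0.347) except in LPS-treated DCs. The difference over the single libraries was −0.0417 ± 0.109, with 5 of 8 negative (exact p = 0.367, adjusted 0.661), and did not exceed its spread. On the square root of occupancy, which gives single high bins less weight, it was −0.0608 with exact p = 0.00781, and with the top 20% of expression −0.0749 with exact p = 0.0234 (23 promoters). The 10 TATA promoters (S100a4, Prdx1, H3f3b, Sqstm1, Ddx5, Mat2a, H2-D1, Emp3, Tubb2a and Fscn1) had 0.715 and 0.678 in DCs, above the 0.439 and 0.379 of the rest, and 0.432 and 0.383 in fibroblasts, against 0.394 and 0.341. Over the single fibroblast libraries they differed by −0.0187 ± 0.0741, with 5 of 8 negative (exact p = 0.531, adjusted 0.771). That difference changed sign with the window or the scale, and the 2 DC sets have no replicates.

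**Figure D4:**
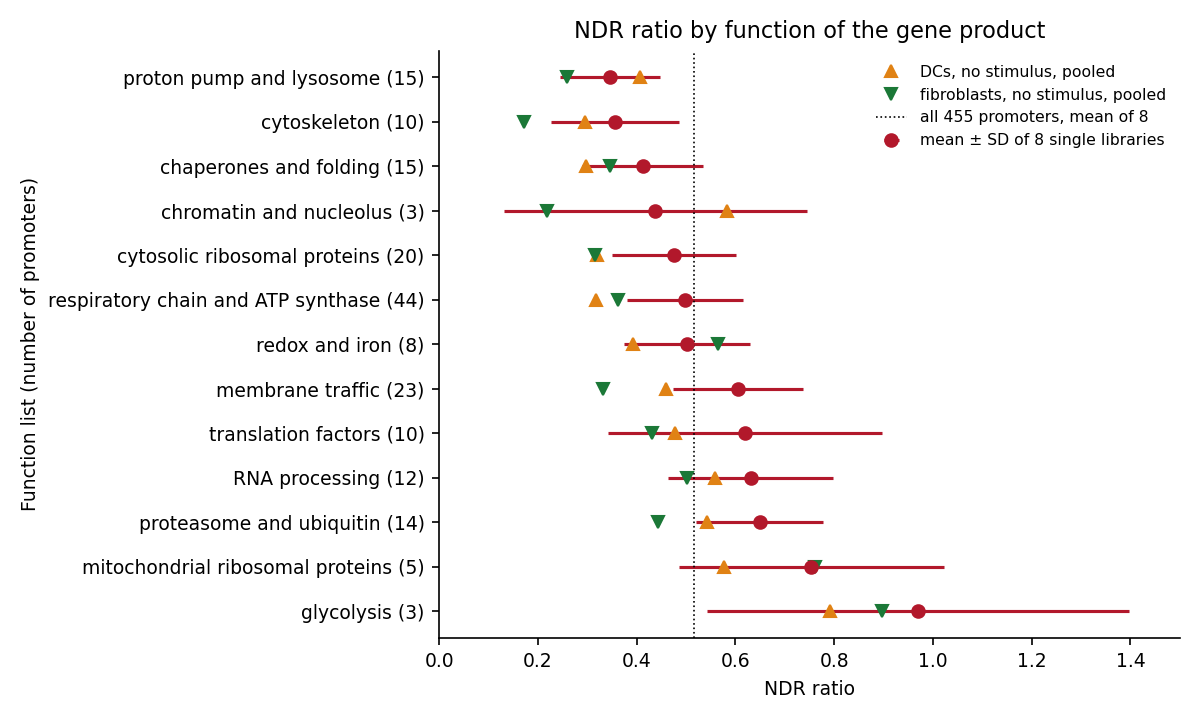
NDR ratio (x axis) of shared high promoters by function list (y axis, number of promoters in brackets): red points and bars are the mean ± SD of the 8 single fibroblast libraries, triangles are the pooled non-stimulated DC (up) and fibroblast (down) sets, and the dotted line is the mean of all 455 promoters (0.516). The lysosome and cytoskeleton lists are at the low end and glycolysis, with 3 promoters, at the high end with the widest bar.

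Downstream of the TSS, a difference in the array between the cells was not resolved. In the mean profile of shared high promoters the second peak stood at 315 to 335 bp and the third at 485 to 515 bp in all 15 sets and libraries. The slope through the first 3 peaks was 175 bp in DCs without stimulus and 185 bp with LPS, and 182 ± 5.37 bp (SD, n = 10, range 175 to 190) in H3K4me1 fibroblast sets and libraries. The difference of 2 bp is smaller than the 10 bp bin (exact permutation test over 66 splits, p = 0.727, adjusted 0.818). Peak positions move in steps of 10 bp and only 2 DC sets exist, so a difference of a few bp was not detectable. Among the pooled sets, fibroblasts without stimulus had 190 bp, above DCs without stimulus. Fibroblasts with TNF-α had 180 bp, below DCs with LPS. The paper reports a longer mean spacing in fibroblasts than in DCs, from distances between mapped fragments, which were not computed here.

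The difference in NDR ratio between shared high promoters with and without TNF-α was within the spread of the libraries. The mean was 0.477 ± 0.0654 (n = 4) with TNF-α and 0.554 ± 0.0749 (n = 4) without, a difference of −0.0774, and the groups overlapped (two-sided exact permutation test over 70 splits, p = 0.143, adjusted 0.321). Within replicates the change was −0.145 in both BAF-knockdown pairs and −0.0495 and 0.0302 in the 2 control pairs. In pooled sets, which are without replicate error, the ratio was lower with LPS in DCs (0.386 against 0.446) and with TNF-α in fibroblasts (0.342 against 0.395), and moderately expressed promoters were also lower (0.464 against 0.494 and 0.393 against 0.454).

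BAF knockdown gave 0.504 ± 0.0840 against 0.528 ± 0.0802 in control cells (n = 4 each), a difference of −0.0242 (exact p = 0.6, adjusted 0.771). The 4 differences within a replicate and state were −0.0375 and 0.125 without stimulus and −0.133 and −0.0506 with TNF-α. With the second replicates alone, the difference was 0.0370, in the opposite direction. Both first replicates of the knockdown carry another mark in their file names than the other 6 libraries, and what the mark stands for is not given in the sources used here. Without these 2 libraries the difference was −0.0294.

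For single promoters, limma called none. Over 13559 promoters, 0 passed an adjusted p of 0.05 for the TNF-α effect on the NDR log ratio (log2 of NDR occupancy over the promoter's mean, 0.1 added to each), and 838 had an unadjusted p under 0.05, 36 of them among the 455 shared high promoters. The share called was 0% for TNF-α, for BAF knockdown and for their interaction, 0 of 455 each. At an unadjusted p under 0.05 there were 805 promoters for BAF knockdown (33 shared high) and 824 for the interaction (30 shared high). The median TNF-α effect was −0.19 in shared high and −0.08 in all 13559 promoters on the log2 scale. For the patterning level, 0% were called by limma and 0 of 455 for TNF-α (778 and 28 at an unadjusted p under 0.05), for BAF knockdown (792 and 32) and for the interaction (761 and 23). With 2 libraries per group and many empty bins, this does not show that no promoter changed.

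Among shared high promoters, the smallest p-values for TNF-α belonged to Dpysl2, Hnrnpdl and Polr2g (limma adjusted p = 0.165 each). Dpysl2, a microtubule-binding protein (chromosome 14, TSS 67487437), had relative NDR occupancies of 0.775, 2.08, 2.32 and 1.62 in the 4 libraries without stimulus and of 0 in all 4 with TNF-α, and the groups did not overlap. Its pooled fibroblast sets had 0.114 without and 0 with TNF-α. Hnrnpdl, a splicing factor (chromosome 5, TSS 100468241), had 0.727 to 1.58 in the 4 libraries without stimulus and 0 to 0.115 with TNF-α, but 1.05 and 1.21 in the pooled sets. Polr2g, a subunit of pol-II (chromosome 19, TSS 8873047), had 0 to 0.125 without and 0.733 to 1.14 with TNF-α, and 0 and 1.22 in the pooled sets. For BAF knockdown the smallest p-values were at Ggnbp2 (limma adjusted p = 0.321), Gmfb and Surf4 (0.415 each), and for the interaction at Rpl22 (0.227), Tmem59 (0.331) and Ndufb6 (0.344). On the patterning level, Dpysl2, Rpl27a and Ndufa3 led for TNF-α (limma adjusted p = 0.851 each), Adam9, Ensa and Surf4 for BAF knockdown (0.828 each), and Eif3h, Shisa5 and Npm1 for the interaction (0.859 each).

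Chromatin recovered through pol-II is enriched for alleles that carry the polymerase. The paper names the possibility that large fragments bring in non-transcribing alleles through pol-II on a neighbouring gene. It also states that S5P marks early elongation besides initiation. At shared high promoters the S5P library had an NDR ratio of 0.307, and the S7P libraries 0.684 and 0.621. The 2 single H3K4me1 libraries of control fibroblasts with TNF-α lie between them, at 0.570 and 0.477, and the pooled H3K4me1 set with TNF-α (0.342) lies near S5P. The +1 nucleosome reached 2.59 times the upstream level in S5P, 1.58 and 1.68 times in S7P, 1.47 and 1.55 times in these H3K4me1 libraries, and 1.79 times in the pooled set. The nucleosome upstream of the NDR reached 1.44 times in S5P, at −235 bp, against 1.25 and 1.17 times in S7P. As a group, the 3 pol-II libraries averaged 0.537 ± 0.202 and the H3K4me1 libraries 0.523 ± 0.0657 (exact permutation test over 10 splits, p = 1; the smallest possible is 0.1), but this mean hides that S5P and S7P lie on opposite sides.

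In S5P 371 of 455 promoters were depleted (81.5%, against 55.1% of eligible and 71.4% of moderately expressed promoters). Their median relative NDR occupancy was 0.154. In S7P 169 (37.1%, against 39.8% of eligible promoters) and 208 (45.7%, against 36.6%) were depleted, and moderately expressed promoters had 38.8% and 40.9%. The share in the first S7P replicate is near its background and is no result about the group. Nedd8 stayed high in S5P (2.22), Gabarap had 0.898 and Capzb 0.0818, and Capzb had 1.07 and 0.811 in S7P. Fragments covered 86.5% to 93.4% of the bins at shared high promoters in the pol-II libraries and 69.4% to 81.8% at eligible promoters, whereas in the single H3K4me1 libraries it was 61.0% to 80.3% and 63.5% to 78.3%. Pol-II libraries have paired-end and H3K4me1 libraries single-end reads, so antibody and type of reads cannot be told apart. S5P is 1 library, although the study's reporting summary lists 2 replicates for it. Whether this library is 1 of these replicates or a pool is not given in the sources used here.

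**Figure D5:**
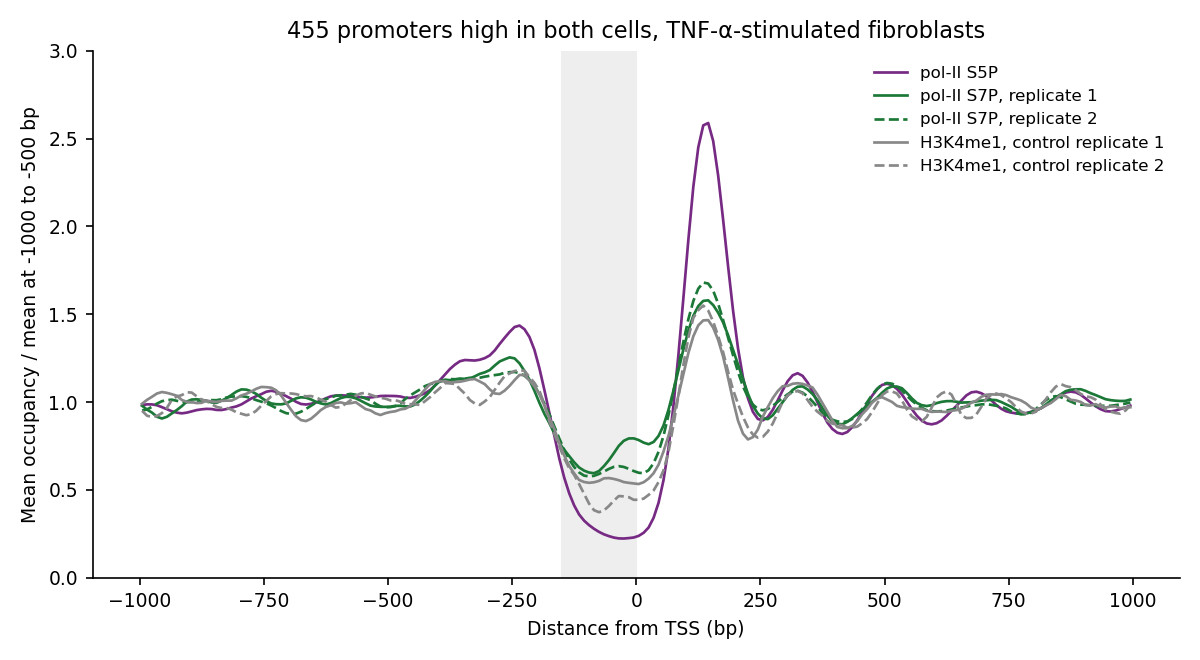
Mean occupancy of the 455 shared high promoters (y axis, relative to the mean from −1000 to −500 bp) against distance from the TSS in bp (x axis) in TNF-α-stimulated fibroblasts, for pol-II S5P (purple), pol-II S7P (green) and single H3K4me1 control libraries (grey); dashed lines are the second replicates and the grey band is the NDR. S5P has the lowest NDR and a +1 peak of 2.59, S7P the highest NDR, and the peaks of all 5 libraries stand at 135 or 145 bp.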

How the data were processed

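The values are nucleosome occupancies of 15 mouse ChIP-MNase sets and libraries. The authors aligned reads to mm9 (the submitters' notes name Bowtie2 and bedtools, the Methods bowtie), dropped duplicates in excess, and used paired-end fragments between 140 and 180 bp long or single-end reads after extension. Fragments per 10 bp were taken relative to the surrounding 1 kb and smoothed over 50 bp. The deposited signal therefore holds no counts and its depth is unknown. The share of bins with any fragment stands in for it. The deposited annotation gives a coverage score (fragments near the TSS) and public RNA-seq expression, read as FPKM. Its columns of the authors' own expression differences upon stimulation were not used. An empty bin was read as 0.

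Shared high promoters, function lists and motifs were chosen with earlier results of these data known. Members had a RefSeq NM_ name, a score above 100 and expression at or above the 90th percentile of such promoters in both cells. Named promoters were the 10 best mean ranks, the 2 best of each list, the 5 most extreme for NDR occupancy and for the difference between cells, those at the thresholds, those with the 3 smallest p of each contrast, and list checks. Symbols came from RefSeq tables, sequence from mm9, exons from GENCODE vM1. Library values were compared by two-sided exact sign-flip or permutation tests (Python 3.11.15, numpy 2.4.6). Promoters of a library are not replicates. Single promoters were fitted with limma 3.58.1 (R 4.3.3) on 4 group means of the 8 single libraries, Benjamini-Hochberg adjusted at 0.05 over 13559 promoters, after a test on simulated data. The study describes the replicates as biological and independent.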

Additional observations from a re-analysis of the deposited data

How the results depend on the processing

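Of 145 recomputed tests over libraries, 126 kept the direction and the side of the threshold, and limma called 0 promoters in each of 72 contrasts under alternatives. The 126 include tests with too few libraries to pass the threshold, such as those under the replicate block. The difference between shared high and moderately expressed promoters, without 1 library at a time, stayed between −0.0613 and −0.0564, and lost the threshold at the top 5% of expression (−0.0350). Among promoters that are not CpG-rich it was 0.0251 (chosen after seeing the data). For ribosomal proteins the difference passed the threshold on the square root of occupancy (−0.0608) and at the top 20% (−0.0749), and leaving out libraries gave −0.0553 to −0.00951. The TATA difference turned to 0.0405 with the NDR window moved 50 bp downstream, to 0.00362 with the mean of −1000 to 1000 bp as reference, to 0.0207 on the square root and to 0.0932 with a coverage above 200 (5 TATA promoters), and leaving out libraries gave −0.0321 to 0.000639 (positive without BAF-knockdown TNF-α replicate 2). The difference between pol-II and H3K4me1 was −0.00876 with that reference and −0.00989 at the top 5%, and −0.0588 to 0.129 without 1 library at a time (negative without either S7P replicate or control TNF-α replicate 2). For BAF knockdown, the second replicates alone gave 0.0370, and leaving out libraries −0.0514 to 0.00614 (positive without control replicate 1 without stimulus or without BAF-knockdown TNF-α replicate 2). The spacing difference was −1.5 bp on the square root and −9 bp at a coverage above 200. For TNF-α, leaving out libraries gave −0.113 to −0.0559. The causes were not tested. Under the replicate block the TNF-α difference was −0.0774 (exact p = 0.25) and the BAF difference −0.0242 (exact p = 0.625). Too few pairs of same-numbered libraries exist for this exact test to pass the threshold at any difference, so it decides neither question. With the block in limma, 0 promoters were called for each of 6 contrasts, so no limma call changed. Deviations of same-numbered libraries were hardly correlated (−0.00571 to 0.0234 over 6 pairs of groups). The NDR ratio of shared high promoters was nevertheless higher in replicate 1 than in replicate 2 in each condition. The same order held for the share of bins with fragments, such as 75.8% and 67.2% in control cells without stimulus. Whether same-numbered libraries share more than a number was not tested. Single promoters are limited by empty bins (61.0% to 80.3% of bins held fragments at shared high promoters in single H3K4me1 libraries).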
